A study of Danio rerio with 12 samples.

Results

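The comparison described here set 3 small RNA libraries of whole zebrafish embryos exposed to TCDD against 3 libraries of embryos exposed to its vehicle DMSO, all at 36 hours post fertilisation (hpf). These 6 libraries were chosen by their labels and are 6 of the 12 in the series, the others being TCDD and DMSO embryos of 60 hpf. All embryos were of the TL wild type strain. The labels used here give neither the dose nor the hours of exposure, and they do not say how many embryos were pooled or whether libraries of a group came from separate clutches. The p-values therefore measure only the spread between libraries of a group, estimated over all 12, which may be partly technical. The question, going by the title of the series, was how miRNA levels respond when exposure to TCDD is brief.

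A miRNA is cut from a hairpin whose 2 arms can each give a mature strand, and the strand held by an Argonaute protein represses messenger RNAs that pair with its seed, the stretch near its 5′ end. miRNAs with related sequence form families, often expressed from several genes and often bound to a tissue, such as miR-206 in muscle or miR-203 in epidermis. TCDD is a dioxin that binds the aryl hydrocarbon receptor, a transcription factor which then pairs with ARNT and induces genes such as cyp1a. In zebrafish embryos TCDD is known for heart, vessel, blood and jaw cartilage defects, most of which become visible later in development.

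The deposited tables hold whole-number counts per miRNA arm, and arms that carry a star in the deposited names are called star arms here and the others major arms. Depth was 1236528, 739920 and 459634 miRNA counts in TCDD libraries 1, 2 and 3, and 648934, 1408510 and 3557670 in DMSO libraries 1, 2 and 3. Values below are CPM, counts scaled to a common library size with TMM factors, in the order of library numbers 1, 2 and 3. A single count was worth 0.862 to 2.47 CPM in TCDD libraries and 0.294 to 1.68 CPM in DMSO libraries. The marker miRNAs of muscle, nerve, epidermis, cartilage, lateral line, eye and blood were present in all 6 libraries except miR-144, which was at 0 counts in TCDD library 2, which allows up to 4.74 CPM (3 counts, counting error only). The share of star arms overlapped between the groups, at 7.45%, 6.93% and 8.55% of counts in TCDD libraries and 7.37%, 6.80% and 8.50% in DMSO libraries.

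No miRNA and no family of miRNAs differed between TCDD and DMSO embryos of 36 hpf beyond the test's threshold. edgeR's quasi-likelihood test with Benjamini-Hochberg adjustment called 0 of 410 tested miRNAs (0.0%) and 0 families (0.0% of those tested), where a call is an adjusted p under 0.05. At an unadjusted p under 0.05 there were 17 miRNAs (4.15%), 13 higher (3.17%) and 4 lower (0.976%) in TCDD embryos. DESeq2 also called 0 miRNAs, with 21 at an unadjusted p under 0.05 and a smallest adjusted p of 0.0682, and limma-voom called 0 with 17. In 22 miRNAs (5.37%) the 3 TCDD and the 3 DMSO libraries did not overlap, 14 with TCDD above (3.41%) and 8 with TCDD below (1.95%). With 3 libraries in each group, labels set at random would separate them fully with a probability of 0.1. The share here, and those of families and hairpins given below, are under that. Among the 20 miRNAs of smallest p, the edgeR adjusted p was 0.522 for miR-27e* and miR-26b* and 0.996 for the other 18. The log2 fold changes of TCDD over DMSO were centred near 0, with a median of 0.05, 224 positive and 186 negative values, and the middle 80% of them between -0.60 and 0.65.

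How large a response the libraries could still have hidden differs with the level of the miRNA. The 95% interval of the log2 fold change lay within a 2-fold difference either way for 76 of 410 miRNAs (18.5%) and for 40 families (32.0%). It did so for 33 of 102 miRNAs with a mean of 1000 CPM or more, but for 1 of 52 under 10 CPM. The median standard error (SE) of the log2 fold change was 0.48 for miRNAs and 0.40 for families.

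**Figure D1:**
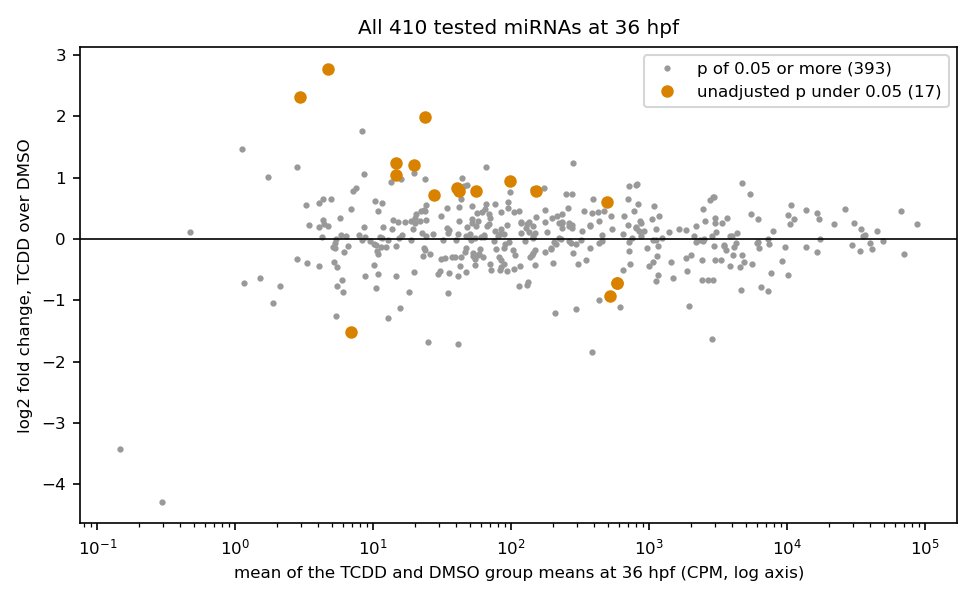
Log2 fold change of TCDD over DMSO embryos at 36 hpf against the mean level (CPM, log axis) for all 410 tested miRNAs, each point 1 miRNA. The 17 miRNAs of unadjusted p under 0.05 (orange) are all under 1000 CPM, and 13 of them lie above 0.

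The smallest p-value of any miRNA was that of the single arm miR-27e*. The miR-27 family is made in clusters with miR-23 and miR-24 and is known from vessels and heart. miR-27e* stood at 26.7, 44.2 and 42.0 CPM in TCDD libraries and at 10.1, 11.2 and 7.34 CPM in DMSO libraries, from 31, 28 and 17 raw counts in TCDD and 6, 14 and 25 in DMSO. Every TCDD library lay more than 2-fold above every DMSO library. The log2 fold change was 1.99 (SE 0.49) with a 95% interval of 0.91 to 3.06 (edgeR unadjusted p = 0.00188, adjusted p = 0.522), and the adjusted p ran from 0.0682 to 0.996 over the alternative settings. The major arm of this hairpin, miR-27e, was measured at 57.8, 42.6 and 54.4 CPM in TCDD libraries and 35.2, 16.8 and 34.9 CPM in DMSO libraries, again without overlap (log2 fold change 0.83, SE 0.34). miR-27c*, from a hairpin that neighbours mir23a-2 and mir24-2, stood at 69.0, 145.3 and 171 CPM in TCDD and 83.9, 65.8 and 49.0 CPM in DMSO libraries, where TCDD library 1 lay below DMSO library 1. The major arm of that hairpin, miR-27c, had 174, 0 and 45 raw counts in TCDD and 72, 135 and 471 in DMSO libraries. The more abundant arms of miR-23 and miR-24 had values near 0, and which of the clusters they came from was not determined. miR-23a, counted over 3 copies, had a log2 fold change of 0.11 (95% interval -0.41 to 0.64). miR-23b was at 3131, 4198 and 3681 CPM in TCDD and 4657, 4189 and 4395 CPM in DMSO libraries (log2 fold change -0.27, 95% interval -0.77 to 0.24), and miR-24 at 649, 710.5 and 630.4 CPM in TCDD and 534, 629 and 708 CPM in DMSO libraries (log2 fold change 0.09, 95% interval -0.43 to 0.60). The intervals of these miR-23 and miR-24 arms lie within a 2-fold difference. The sum over the 10 tested arms of the miR-27 family had a log2 fold change of 0.19 (SE 0.36). Of 20 tested arms of miR-23, miR-24 and miR-27, 10 were positive with a median of 0.01, beside 0.05 over all miRNAs, and the summed level was 5569, 6896 and 6628 CPM in TCDD and 7166, 6555 and 7007 CPM in DMSO libraries.

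The next smallest p was that of miR-26b*, of the miR-26 family, which is hosted in introns of the ctdsp phosphatase genes and known in mammals for slowing growth and repressing Ezh2. miR-26b* stood at 20.7, 20.5 and 19.8 CPM in TCDD and 11.7, 7.22 and 7.63 CPM in DMSO libraries, from 24, 13 and 8 counts in TCDD and 7, 9 and 26 in DMSO. The TCDD libraries all lay above the DMSO libraries (log2 fold change 1.25, SE 0.32, 95% interval 0.54 to 1.95, edgeR unadjusted p = 0.00255, adjusted p = 0.522). They lay within 1 CPM of each other, but a single count was worth 1.58 CPM in TCDD library 2 and 2.47 CPM in TCDD library 3. That closeness is therefore no measure of precision. miR-26a-3*, from a hairpin within ctdspla, was at 63.0, 48.9 and 98.9 CPM in TCDD and 43.6, 40.9 and 37.3 CPM in DMSO libraries, also without overlap (log2 fold change 0.79, SE 0.34). The major arms were less even, with miR-26a at 770.2, 1263 and 1451 CPM in TCDD and 500.1, 1199 and 1084 CPM in DMSO libraries (log2 fold change 0.32, SE 0.41). Values of miR-26b scattered within both groups, at 117, 589 and 734 CPM in TCDD and 591, 427 and 152.7 CPM in DMSO libraries. The miR-26 family sum had a log2 fold change of 0.35 (SE 0.34). All 6 tested miR-26 arms had a positive log2 fold change, with a median of 0.37, and this median stayed positive under all 14 alternative settings (0.10 to 0.68), though 4 of 6 arms were positive without TCDD library 3 or without DMSO library 1.

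Within the miR-15 and miR-16 family, which in mammals restrains the cell cycle and Bcl2, miR-15c had the smallest p. It was at 304, 308 and 457.3 CPM in TCDD and 832, 698 and 511 CPM in DMSO libraries, each TCDD library below each DMSO library. Its log2 fold change was -0.93 (SE 0.29) with an interval of -1.56 to -0.30 (edgeR unadjusted p = 0.00765, adjusted p = 0.996), and the adjusted p ran from 0.0725 to 0.998 over the alternative settings. miR-16a, whose hairpin lies next to that of miR-15c within the annotated smc4 and kpna4 genes, was at 119, 105.8 and 136 CPM in TCDD and 129, 104 and 34.6 CPM in DMSO libraries, with overlap (log2 fold change 0.44, SE 0.46). The star arm miR-15c* had a log2 fold change of 0.03 (SE 0.68). The abundant miR-16c was at 10514, 14168 and 31489.9 CPM in TCDD and 13754, 15672 and 12468 CPM in DMSO libraries, TCDD library 3 being the highest of the 6, and miR-457a at 16551, 13869.8 and 21376 CPM in TCDD and 13833, 18633 and 19605 CPM in DMSO libraries (95% interval of the log2 fold change -0.55 to 0.54). Of 15 tested arms 13 were positive, with a median of 0.28. Without TCDD library 3 that number was 7 and the median -0.03.

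Among cartilage and mesenchyme miRNAs the miR-455 family, whose mir455b gene lies within the collagen gene col27a1a, had the smallest p of all families. Its sum over arms was 1008, 1208 and 878 CPM in TCDD libraries and 1534, 1585 and 1947 CPM in DMSO libraries, with means of 1031 ± 166 CPM in TCDD and 1688 ± 225 CPM in DMSO (SD, n = 3 each). All TCDD libraries lay below all DMSO libraries, and the log2 fold change was -0.71 (SE 0.24) with an interval of -1.23 to -0.19 (edgeR unadjusted p = 0.0115, adjusted p = 0.967). Each of its 4 arms was negative. miR-455* stood at 396, 529 and 388 CPM in TCDD and 679.7, 680.1 and 809 CPM in DMSO libraries (log2 fold change -0.72, SE 0.26). miR-455b* had nearly the same values, 401, 543 and 381 CPM in TCDD and 681, 676 and 816 CPM in DMSO libraries, and may not be a separate measurement. The major arm miR-455 was at 68.1, 61.6 and 76.6 CPM in TCDD and 80.6, 89.8 and 123 CPM in DMSO libraries (log2 fold change -0.51, SE 0.30). miR-140*, the abundant strand of the cartilage miRNA that shapes the zebrafish palate, was at 5700.0, 6876 and 12007 CPM in TCDD and 6996, 7135 and 8425 CPM in DMSO libraries, and miR-199 at 2961, 4400.1 and 2742 CPM in TCDD and 3314, 3642 and 3895 CPM in DMSO libraries (95% interval of the log2 fold change -0.67 to 0.46). The groups overlapped in both. Over the group 9 of 11 arms were negative with a median of -0.14, which stayed negative under all 14 alternative settings (-0.44 to -0.13). The 9 include all 4 arms of miR-455, among them miR-455* and miR-455b*, which may be 1 measurement. The 2 positive arms were those of miR-140, at log2 fold changes of 0.12 for miR-140* and 0.89 for the major arm, both with overlap. No arm or family of the group passed the test. Since whole embryos were measured, the number of cells of a type and the RNA per cell cannot be told apart in any of these levels.

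**Figure D2:**
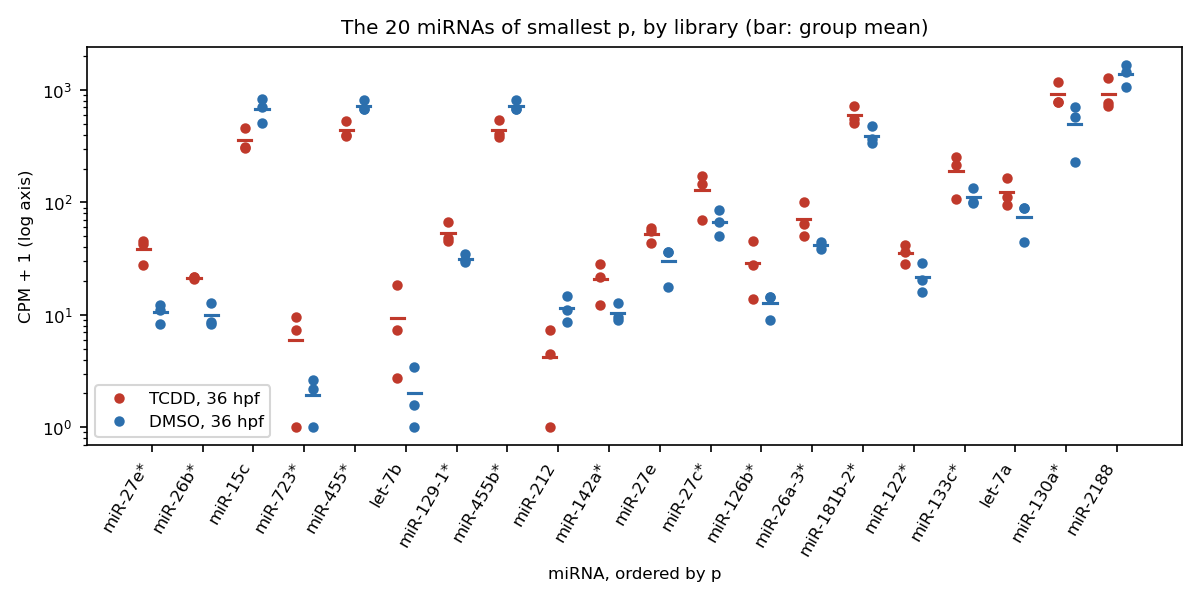
Level (CPM + 1, log axis) of the 20 miRNAs of smallest p at 36 hpf, with each point 1 library, TCDD (red) left of DMSO (blue), and bars at the group means. miR-27e* and miR-26b* show TCDD libraries above all DMSO libraries, and miR-15c and miR-455* show them below.

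Endothelial arms lay above 0 in value without passing the test. miR-126, carried by egfl7 and needed for vessel integrity in zebrafish, had miR-126b* at 12.9, 26.8 and 44.5 CPM in TCDD and 13.4, 8.02 and 13.5 CPM in DMSO libraries, with TCDD library 1 inside the DMSO range (log2 fold change 1.22, SE 0.52). The major arm of that hairpin, miR-126b, was at 5032, 2043 and 3706 CPM in TCDD and 1489, 4665 and 516 CPM in DMSO libraries, with overlap (log2 fold change 0.69, SE 0.80). miR-126a*, from the other miR-126 hairpin, was at 3319.6, 2943 and 3859 CPM in TCDD and 2996, 1986 and 2984 CPM in DMSO libraries (log2 fold change 0.35, SE 0.32). miR-221, which acts in tip cells of zebrafish vessels, was at 8715, 5572 and 6203 CPM in TCDD and 7089, 166 and 8991 CPM in DMSO libraries. DMSO library 2 was far below the other 5, and the SE of the log2 fold change was 1.29. miR-222 stood at 1415, 5726 and 5115 CPM in TCDD and 3331, 4282 and 4168 CPM in DMSO libraries. All 9 tested arms were positive, with a median of 0.35, but without DMSO library 3 only 6 of 9 were positive and the median was 0.13. Of the smooth muscle arms 2 of 3 were negative, with miR-145 at 3021, 4623 and 4079 CPM in TCDD and 4256, 3704 and 3429 CPM in DMSO libraries (95% interval of the log2 fold change -0.52 to 0.60) and miR-145* at a log2 fold change of -0.26 (SE 0.48).

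Blood miRNAs showed wide ranges. The erythroid miR-451, which Argonaute itself cuts from its hairpin, was at 3579, 4613 and 581 CPM in TCDD and 3754, 3465 and 1229 CPM in DMSO libraries. The library numbered 3 was the lowest in each group. miR-451* was at 678, 1421 and 1070.4 CPM in TCDD and 2066, 808 and 336 CPM in DMSO libraries, so that neither arm separated the groups, and the median log2 fold change of the 4 erythroid arms was 0.00021. Among leukocyte miRNAs miR-142a*, from a hairpin needed for zebrafish neutrophils, stood at 11.2, 20.5 and 27.2 CPM in TCDD and 11.7, 8.02 and 8.51 CPM in DMSO libraries, TCDD library 1 lying just below DMSO library 1 (log2 fold change 1.04, SE 0.41). The miR-142 family sum did not overlap, at 75.0, 67.9 and 91.5 CPM in TCDD and 57.1, 53.7 and 46.4 CPM in DMSO libraries (log2 fold change 0.58, SE 0.28). The neutrophil miRNA miR-223 was at 4125, 4735 and 11134 CPM in TCDD and 3897, 4375 and 3719.5 CPM in DMSO libraries, with TCDD library 3 above all others (log2 fold change 0.74, SE 0.41; 0.12 without that library), and the lymphoid miR-150 at 1414, 2768 and 4229.8 CPM in TCDD and 2759, 2187 and 1919 CPM in DMSO libraries. Over 11 leukocyte arms 6 were positive and 5 negative, with a median of 0.29. All 3 tested arms of the miR-146 family were negative (log2 fold change of the sum -0.42, SE 0.33). In the miR-223 family 1 of 2 tested arms was positive. The group median was 0.0053 without TCDD library 3 and -0.04 without DMSO library 2.

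Muscle and heart miRNAs did not separate the groups either. miR-1, the shared miRNA of skeletal and heart muscle, stood at 9113, 4151 and 4492 CPM in TCDD and 3079, 7308 and 8146 CPM in DMSO libraries, and the skeletal miR-206 at 15518, 22586 and 61279 CPM in TCDD and 17023, 27737 and 38024 CPM in DMSO libraries. The groups overlapped in both. A tight value came from miR-133a-1*, at 6484, 6709.9 and 5048 CPM in TCDD and 6313, 6022 and 6548 CPM in DMSO libraries (log2 fold change -0.05, 95% interval -0.57 to 0.47). miR-133c* was at 106.1, 251 and 213 CPM in TCDD and 99.01, 98.6 and 133.3 CPM in DMSO libraries (log2 fold change 0.78, SE 0.35), with TCDD library 1 inside the DMSO range. Of 15 arms 9 were positive, and the summed level was 52943, 54212 and 92119 CPM in TCDD and 44272, 59829 and 75825 CPM in DMSO libraries.

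Neural and eye miRNAs were spread evenly about 0. Of 33 neural arms 17 were positive (median 0.04), and of 18 sensory and eye arms 9 (median 0.04). miR-153b, a repressor of synaptic vesicle genes in zebrafish, was at 10951, 20078 and 16756 CPM in TCDD and 16892, 11193 and 6502 CPM in DMSO libraries, and the motor neuron miRNA miR-218a at 7942, 6568 and 7409 CPM in TCDD and 6174, 7496 and 8268 CPM in DMSO libraries. The groups overlapped in both. miR-204, of lens and pigmented epithelium, gave 26489, 25842 and 33334 CPM in TCDD and 27943, 29394 and 33830.5 CPM in DMSO libraries (log2 fold change -0.09, 95% interval -0.61 to 0.44). miR-181b-2* had no overlap, at 553, 505 and 724 CPM in TCDD and 369, 334 and 474 CPM in DMSO libraries (log2 fold change 0.60, SE 0.27), while miR-181a of the same family was at 7378, 10695 and 3345 CPM in TCDD and 8815, 8590.4 and 5142 CPM in DMSO libraries. Outside these groups, miR-129-1*, of a family linked to cilium formation in zebrafish, lay at 44.0, 66.3 and 47.0 CPM in TCDD and 33.6, 29.7 and 28.5 CPM in DMSO libraries without overlap (log2 fold change 0.78, SE 0.29, 95% interval 0.15 to 1.42). For the miR-9 family, which keeps neural progenitors in balance, the summed level was 352, 264 and 259.6 CPM in TCDD and 250.0, 187 and 133.3 CPM in DMSO libraries (log2 fold change 0.63, SE 0.39), again without overlap. The major arm miR-9 did overlap, at 140.6, 9.47 and 118.7 CPM in TCDD and 68.8, 48.9 and 4.99 CPM in DMSO libraries (log2 fold change 1.17, SE 1.29).

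In the families that mammalian work ties to the aryl hydrocarbon receptor, miR-132, miR-203 and miR-212, 0 of 9 arms passed the test, 3 were positive and the median was -0.07. miR-212, which is made with miR-132 and is induced by receptor ligands in mouse T cells, stood at 3.45, 6.32 and 0 CPM in TCDD and 10.1, 13.6 and 7.63 CPM in DMSO libraries, from 4, 4 and 0 counts in TCDD and 6, 17 and 26 in DMSO. All TCDD libraries were below all DMSO libraries (log2 fold change -1.52, SE 0.57, 95% interval -2.79 to -0.26), though the 0 in TCDD library 3 allows up to 7.42 CPM, which is close to the lowest DMSO library. Its cluster mate miR-132 was at 17.2, 15.8 and 9.89 CPM in TCDD and 15.1, 3.21 and 20.3 CPM in DMSO libraries (log2 fold change 0.17, SE 0.58). The epidermal miR-203b was among the most abundant miRNAs, at 71642, 60923 and 58972 CPM in TCDD and 60684, 76042 and 90070.2 CPM in DMSO libraries (log2 fold change -0.24, 95% interval -0.84 to 0.35), and miR-203a was at 46168, 39143 and 31789 CPM in TCDD and 34822, 44759 and 51247 CPM in DMSO libraries. The groups overlapped in both, and the intervals lie within a 2-fold difference.

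Other epithelial miRNAs varied more. miR-141, a member of the miR-200 family that guards epithelial identity, stood at 3083, 2329 and 1268 CPM in TCDD and 3189, 3865 and 3570.4 CPM in DMSO libraries, all TCDD below all DMSO values (log2 fold change -0.67, SE 0.40, 95% interval -1.54 to 0.20). TCDD library 1 and DMSO library 1 differed little. miR-200c, whose hairpin neighbours that of miR-141, was at 108, 85.3 and 185 CPM in TCDD and 344, 404 and 127 CPM in DMSO libraries (log2 fold change -1.21, SE 0.64), and the star arm miR-200b* at 180.3, 171 and 200.2 CPM in TCDD and 20.1, 139 and 151 CPM in DMSO libraries. In the star arm the 20.1 CPM of DMSO library 1 lay far below all others. miR-205 ranged over 62762, 50171 and 26286 CPM in TCDD and 40556, 13576 and 73681 CPM in DMSO libraries. Of 18 epithelial arms 13 were negative (median -0.15), but without TCDD library 3 only 8 were negative and the median was 0.05.

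The developmental timing miRNAs, let-7 with its partners miR-99, miR-100 and miR-125, gave 20 positive and 15 negative arms (median 0.03). let-7a was at 163, 94.7 and 111 CPM in TCDD and 87.3, 87.4 and 43.4 CPM in DMSO libraries, without overlap (log2 fold change 0.77, SE 0.36). let-7b rested on 2, 4 and 7 counts in TCDD and 0, 3 and 2 counts in DMSO libraries, at or near the floor of 3 counts. The abundant miR-125c (5199, 6244 and 6403 CPM in TCDD, 5882, 6532 and 7334 CPM in DMSO libraries) and miR-125b (3681, 3857 and 4264 CPM in TCDD, 4397, 4308 and 4215 CPM in DMSO libraries) had 95% intervals of the log2 fold change of -0.68 to 0.38 and -0.65 to 0.39. miR-99 had a log2 fold change of -0.13 (SE 0.41). For miR-430, which clears maternal messenger RNA in early zebrafish embryos, the summed level was 3240.3, 1828 and 2836 CPM in TCDD and 2917, 2539 and 2863 CPM in DMSO libraries, with 2 of 8 arms positive. miR-430b was at 688, 289 and 1011 CPM in TCDD and 765, 727 and 784 CPM in DMSO libraries.

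The most abundant miRNAs of the embryo had overlapping levels in the groups. miR-19b, of the miR-17-92 type clusters active in dividing cells, was at 92653, 115815 and 76512 CPM in TCDD and 91322, 90402 and 58134 CPM in DMSO libraries (log2 fold change 0.25, SE 0.72). Its paralog miR-19a was at 35624, 44617 and 28835 CPM in TCDD and 37166, 37648 and 23094 CPM in DMSO libraries. Those clusters together gave 14 positive and 18 negative arms, of which miR-92a-1* did not overlap, at 322, 286 and 307 CPM in TCDD and 258, 123.5 and 260.1 CPM in DMSO libraries (log2 fold change 0.51, SE 0.70). miR-10c and miR-10a lie in Hox clusters and stood at 49376, 41442 and 56854 CPM in TCDD and 49121, 52043 and 50221 CPM in DMSO libraries, and at 32475, 41687 and 34016 CPM in TCDD and 35653, 34551 and 34629.6 CPM in DMSO libraries, with 9 of 17 Hox cluster arms positive. The interval of miR-10c was -0.60 to 0.53. Of the families that share the miR-130 seed, miR-130b was at 44168, 66169 and 119745 CPM in TCDD and 43411, 66783 and 57840.2 CPM in DMSO libraries, miR-301c at 28004, 43195 and 44973 CPM in TCDD and 50701, 38259 and 33219.6 CPM in DMSO libraries, and miR-130c at 28062, 61757 and 22163 CPM in TCDD and 38482, 45175 and 23537 CPM in DMSO libraries. Of their star arms, miR-130b* was at 12513, 10989 and 15369 CPM in TCDD and 11690.1, 13699 and 17307 CPM in DMSO libraries (log2 fold change -0.14, SE 0.29), and miR-301c* had a log2 fold change of 0.02 (SE 0.54). miR-130a* stood at 784, 788 and 1177 CPM in TCDD and 705, 569 and 229.9 CPM in DMSO libraries (log2 fold change 0.87, SE 0.43), and miR-130c* at 392.4, 478 and 319 CPM in TCDD and 131, 81.0 and 291 CPM in DMSO libraries (log2 fold change 1.24, SE 0.79). In these 2 arms, chosen for small p or for groups that do not overlap, the groups did not overlap. miR-454a, of a family with the same seed, had a log2 fold change of -1.85 (SE 1.57). The miR-30 family, which tunes vessel branching in zebrafish, had a sum of 31683, 29735 and 28509 CPM in TCDD and 54050.2, 33904 and 30574 CPM in DMSO libraries (log2 fold change -0.40, SE 0.26), DMSO library 1 being the highest. Its main members were miR-30c at 13034, 20111 and 12492 CPM in TCDD and 25840.3, 13961 and 13098 CPM in DMSO libraries, and miR-30e at 7775, 3719.7 and 7006 CPM in TCDD and 11704, 8816 and 6689.8 CPM in DMSO libraries (log2 fold change -0.56, SE 0.36).

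Stress, liver and pancreas miRNAs completed the groups examined. miR-210, induced by hypoxia through HIF, a factor that also pairs with ARNT, was at 3659, 45.8 and 485 CPM in TCDD and 3021, 4133 and 5812 CPM in DMSO libraries. Its log2 fold change of -1.63 (SE 1.40) came with low levels in TCDD libraries 2 and 3, while miR-210* of the same hairpin was at 4156, 4356 and 4294 CPM in TCDD and 4122, 4986 and 6236 CPM in DMSO libraries (log2 fold change -0.26, 95% interval -0.79 to 0.26). The liver miRNA miR-122 was at 104, 23.7 and 14.8 CPM in TCDD and 80.6, 16.04 and 87.8 CPM in DMSO libraries, and miR-122* at 35.4, 41.0 and 27.2 CPM in TCDD and 15.1, 19.2 and 27.9 CPM in DMSO libraries (log2 fold change 0.71, SE 0.32). Both overlapped between groups. miR-192, of gut, liver and kidney, was at 1019, 908 and 2054 CPM in TCDD and 1069, 1000.1 and 1011 CPM in DMSO libraries (log2 fold change 0.37, SE 0.33). The miR-7 family, of endocrine pancreas and neurons, had a sum of 2095, 2889 and 1708 CPM in TCDD and 2054, 1574 and 1128 CPM in DMSO libraries, with 6 of 6 arms positive (log2 fold change 0.49, SE 0.29; 0.20 without TCDD library 2). For the median log2 fold change of a group, the sign was the same under all 14 alternative settings in 6 of 22 groups, namely the endothelial, miR-26, cartilage, smooth muscle, miR-30 and miR-17-92 type groups, and it was not in the other 16. The alternatives reuse the same libraries, so a kept sign is no separate support. The median came near 0 in the miR-17-92 type (-0.19 to -0.0058) and miR-30 groups (-0.53 to -0.0090). Smooth muscle had only 3 tested arms.

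**Figure D3:**
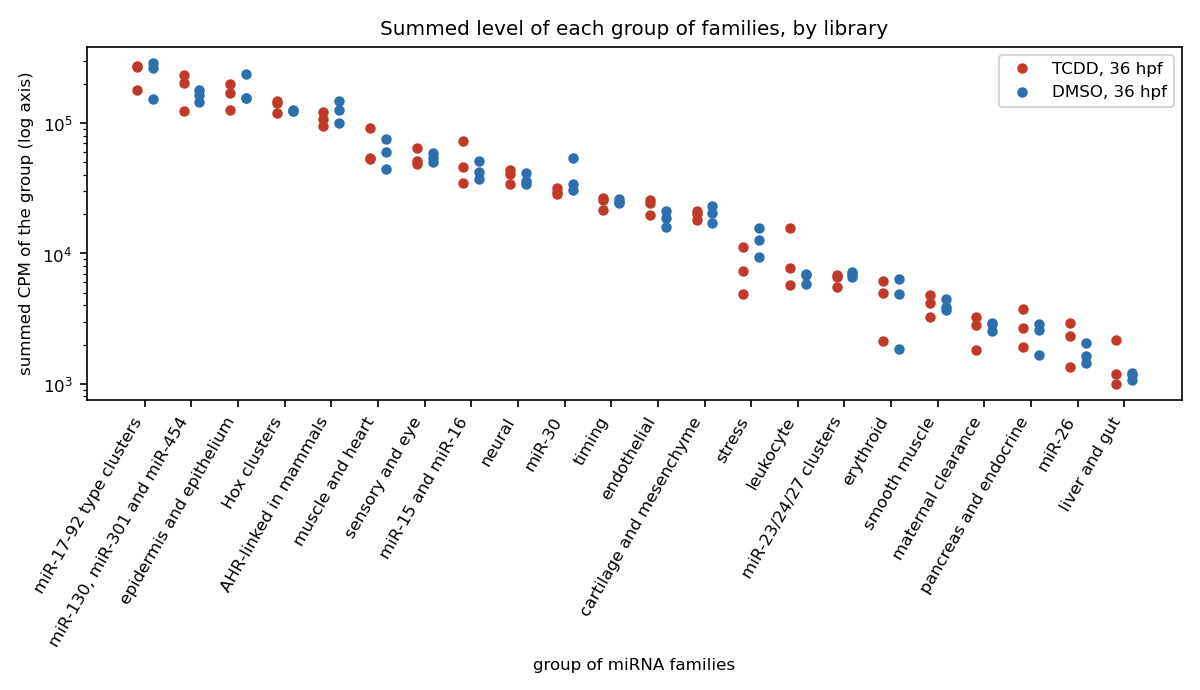
Summed level (CPM, log axis) of each of 22 groups of miRNA families at 36 hpf, each point 1 library, TCDD (red) left of DMSO (blue). The TCDD and DMSO libraries overlap in all 22 groups, and the epidermal group ranges from 126466 to 200096 CPM in TCDD and from 155066 to 238062 CPM in DMSO libraries.

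In the fit of family sums 1 family (0.8%) had an unadjusted p under 0.05, namely miR-455, whose sum may count the same reads more than once. The 3 TCDD and 3 DMSO libraries did not overlap in 7 families (5.6%), of which miR-142, miR-9, miR-135 and miR-29 had TCDD above (3.2%) and miR-455, miR-141 and miR-731 had TCDD below (2.4%). The miR-135 family was at 6912, 6734 and 6363 CPM in TCDD and 5632, 5311 and 3999.9 CPM in DMSO libraries (log2 fold change 0.42, SE 0.30), and the miR-29 family, a repressor of collagens in mammals, at 612, 729 and 618 CPM in TCDD and 581, 577 and 503 CPM in DMSO libraries (log2 fold change 0.24, SE 0.26). The gap between the groups in miR-29 was small beside their levels. miR-731 was at 8.62, 12.6 and 9.89 CPM in TCDD and 33.6, 16.04 and 16.7 CPM in DMSO libraries (log2 fold change -1.05, SE 0.65). miR-2188, whose gene lies within ank1a, was at 714, 1280.4 and 759 CPM in TCDD and 1054, 1438 and 1664 CPM in DMSO libraries (log2 fold change -0.59, SE 0.29), with overlap. The remaining families of the 10 smallest p had log2 fold changes of -0.74 (SE 0.36) for miR-210, -0.53 (SE 0.27) for miR-2188, -1.21 (SE 0.66) for miR-212, 0.73 (SE 0.40) for miR-223 and 0.72 (SE 0.42) for miR-724. Of 54 families with 3 or more tested arms, all arms were positive in 10 and all negative in 4, which were miR-455, miR-146, miR-203 and miR-199. Arms of a family can share reads, and with only 3 arms a shared sign arises easily. These counts are therefore no evidence of a shift of whole families. Of 19 families of 10000 CPM or more, 10 had an interval within a 2-fold difference, among them miR-10 (-0.55 to 0.83), miR-203 (-0.75 to 0.34), miR-204 (-0.59 to 0.41), miR-125 (-0.59 to 0.36) and miR-457 (-0.48 to 0.49). Intervals of miR-19 (-1.06 to 1.52), miR-205 (-1.06 to 1.30) and miR-20 (-1.71 to 1.25) were wider than that.

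**Figure D4:**
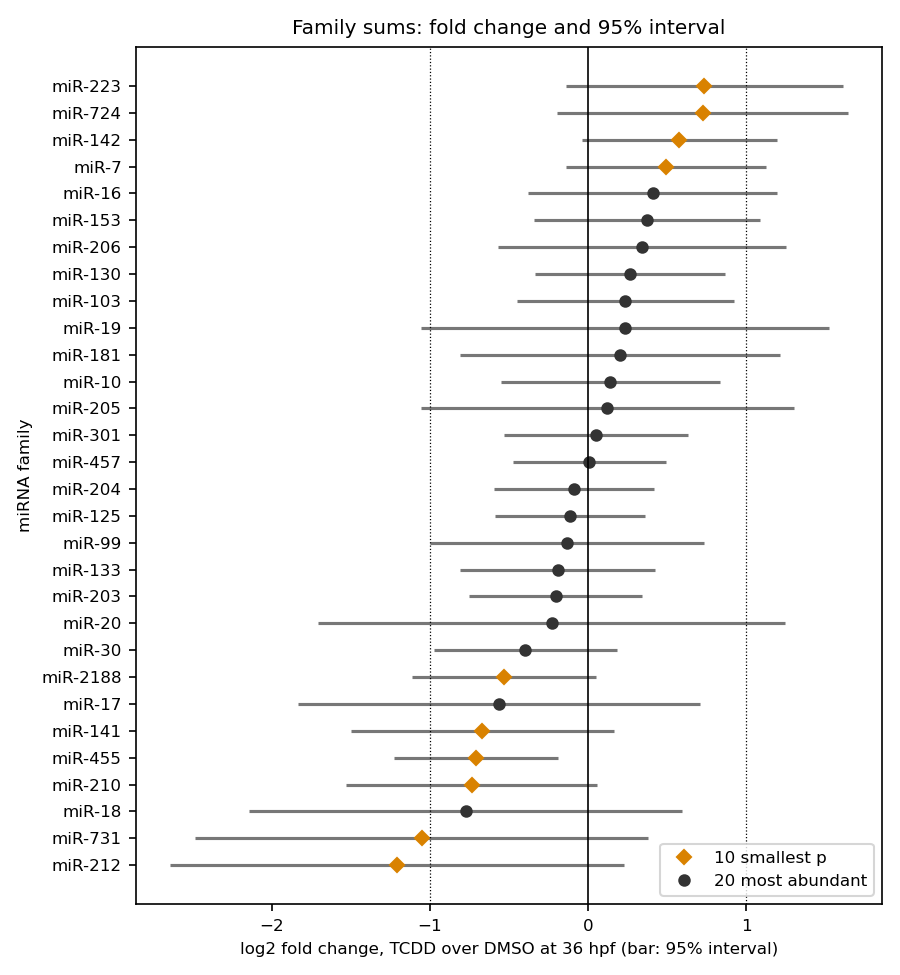
Log2 fold change of TCDD over DMSO embryos at 36 hpf for family sums, with 95% intervals (bars), for the 10 families of smallest p (orange) and the 20 most abundant (black). The interval of miR-455 (-1.23 to -0.19) leaves out 0, and dotted lines mark a 2-fold difference.

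The balance between the arms of a hairpin was tested over 172 hairpins with both arms measured, a hairpin here being a name with all its copies. For names with several star arms, such as let-7a, the test also responds to differences between the star arms of different copies. edgeR's test of arm balance called 0 (0.0%) at an adjusted p under 0.05, with 9 at an unadjusted p under 0.05 (5.23%). The share of the star arm did not overlap between groups in 10 hairpins (5.81%), being higher in TCDD in 7 (4.07%) and lower in 3 (1.74%). The star arm took 0.920%, 0.703% and 1.03% of the miR-125c counts in TCDD libraries and 0.511%, 0.404% and 0.589% in DMSO libraries. For miR-30a the star share was 4.84%, 8.0% and 4.29% in TCDD and 1.66%, 0.810% and 3.63% in DMSO libraries, and for miR-103 it was 0.110%, 0.271% and 0.229% in TCDD and 0.485%, 0.498% and 0.404% in DMSO libraries. The groups did not overlap in these 3 hairpins, and their edgeR adjusted p was 0.767. miR-723* was found 10, 4 and 0 times in TCDD and 0, 2 and 4 times in DMSO libraries. The hairpins miR-723 and let-7b were the others of smallest p. miR-723* and both arms of let-7b had 10 or fewer counts in every library of 36 hpf. Without TCDD library 3 the test called 1 hairpin, miR-193b (adjusted p = 0.0425). Its star share was 3.31% and 1.13% in the TCDD libraries kept, from only 5 and 2 star counts, and 13.7% in the one left out. In DMSO libraries the share was 7.87%, 7.98% and 11.8%, from 10, 26 and 99 star counts.

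The 20 miRNAs of smallest p at 36 hpf were compared with the same contrast in the 60 hpf libraries, which are separate samples in the same model. Among these, miR-27e had the largest value at 60 hpf, with means of 134 ± 17.7 CPM for TCDD and 28.0 ± 1.65 CPM for DMSO libraries (SD, n = 3 each). The log2 fold change was 2.26 (SE 0.34), and edgeR gave an adjusted p of 0.0152. Its star arm had a log2 fold change of 1.07 (SE 0.45). The star arms of miR-26 had log2 fold changes of 0.63 (SE 0.29) for miR-26b* and 0.64 (SE 0.33) for miR-26a-3*, and none of these 3 passed. That of miR-15c was -0.21 (SE 0.28). The log2 fold change of miR-455* was 0.09 (SE 0.26). Its means were 739 ± 102 CPM for TCDD and 693 ± 142.1 CPM for DMSO libraries (SD, n = 3 each). The log2 fold change of miR-129-1* was -0.63 (SE 0.28). Others positive at 36 hpf but negative at 60 hpf included miR-723* (-1.96, SE 0.55), miR-126b* (-0.52, SE 0.49) and miR-130a* (-0.35, SE 0.42). For miR-723* the edgeR test of the difference between the times gave an adjusted p of 0.388, the smallest of the 20. A test of the difference between the times passed for 0 of 410 miRNAs, with 19 at an unadjusted p under 0.05, so these values are not shown to differ between 36 and 60 hpf.

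Some abundant miRNAs had 1 library far below the other 5, and their standard errors were larger. Among 102 arms of 1000 CPM or more, 14 had a library over 8-fold below the median of the others, 9 times a TCDD and 5 times a DMSO library. Their median SE was 0.93, against 0.39 for the other arms of that level. miR-20a was at 305.6 CPM in DMSO library 3, where the other 5 libraries were at 16961 to 61387 CPM. miR-221 was at 166 CPM in DMSO library 2 and miR-210 at 45.8 CPM in TCDD library 2. In the same library miR-210* was at 4356 CPM, inside the 4122 to 6236 CPM of the others. miR-17a was at 1189 CPM in TCDD library 3 and at 10253 to 13425 CPM in the others, while its star arm miR-17a-1* lay inside their range. Each of the 14 arms was set beside the most abundant opposite arm of its name. That arm may come from another copy of the hairpin, and miR-20a and miR-20a* were set beside each other. In the same library the opposite arm lay inside the range of the other 5 libraries 10 times, below it 3 times and above it 1 time. Those below were miR-181c* (156 CPM in TCDD library 3, 362 to 508 CPM in the others), miR-34* (4.74 CPM in TCDD library 2, 7.42 to 16.4 CPM in the others) and miR-199, opposite miR-199-3* (2742 CPM in TCDD library 3, 2961 to 4400.1 CPM in the others). These arms were picked after their values were seen, and they are described with no test.

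**Figure D5:**
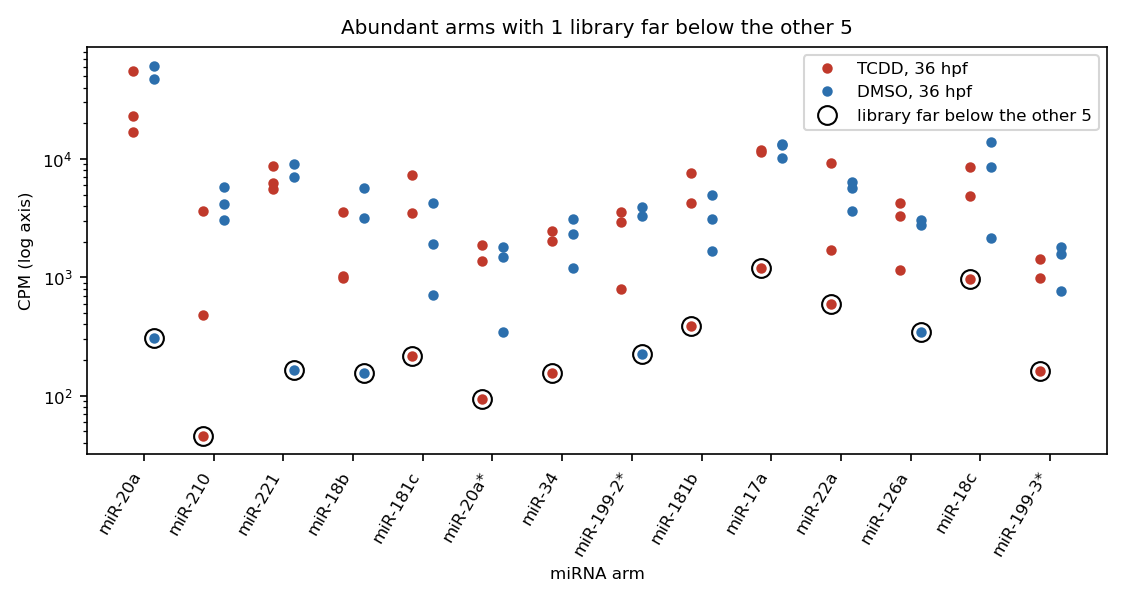
Level (CPM, log axis) of the 14 arms of 1000 CPM or more that had 1 library over 8-fold below the median of the other 5, each point 1 library at 36 hpf, TCDD (red) left of DMSO (blue). Open rings mark the low library, which is a TCDD library in 9 arms and a DMSO library in 5.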

How the data were processed

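Per the labels' protocols, libraries of whole embryos followed the SREK protocol for small RNA, and a SOLiD V3 system read them. Each library has a deposited table of whole-number counts by miRNA arm, and arms missing from a table were set to 0. The submitters' processing notes list edgeR, with no version and no role, and with aligner, annotation and build not given in the sources used here. Tables were grouped by title. Counts of 699 miRNA names were reduced to 464 features by counting hairpin copies of alike counts (80% or more of the most abundant copy) 1 time, since reads of copies had mostly been counted for each copy. Near-identical paralogs can still share reads. Ensembl transcript entries, 2.24% to 5.35% of counts at 36 hpf, were left out of library sizes.

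edgeR 4.0.16 (limma 3.58.1, R 4.3.3) was run on features passing filterByExpr (minimum count 10, total 15; 410 kept), with TMM scaling and a robust quasi-likelihood fit of 4 group means over 12 libraries, so that the 60 hpf libraries share in the estimate of the spread. The contrast was TCDD minus DMSO at 36 hpf. Family sums (131 families before the filter; a family is a miRNA number, both arms and all letters) and arm balance (diffSpliceDGE, 172 hairpins) used the same model. Adjusted p is Benjamini-Hochberg over all features tested, with calls under 0.05. SE is the log2 fold change over the square root of F, and 95% intervals use the t distribution. Scripts were tested on simulated data.

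The named miRNAs were the 20 of smallest p, the 10 most abundant, up to 10 of largest value at 100 CPM or more without overlap, the 5 of narrowest interval, the 2 most abundant of each group of families, the 10 families and 5 hairpins of smallest p, with locus mates and a few markers added after their values were seen. These choices and the groups of families were made with earlier results of these data known. Locus neighbours come from RefSeq (assembly GRCz12tu). Alternatives were RLE and total count scaling, no filter, DESeq2 1.42.0, limma-voom, the 36 hpf libraries alone, a replicate block, summed copies, limma on arm ratios and leaving out each library.

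Replicate libraries differed far beyond counting error (chi-square over degrees of freedom 167 to 892 in DMSO and 221 to 326 in TCDD pairs), so none was counted as the same library deposited 2 times. This does not show that libraries came from separate embryos. Libraries with the same number did not deviate together (correlations -0.23, 0.02 and 0.12 for numbers 1, 2 and 3), so the numbers were not taken to pair them.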

Additional observations from a re-analysis of the deposited data

How the results depend on the processing

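No miRNA or family passed under any alternative run for them, and these tests also called 0 with any 1 library left out. With all libraries kept, arm balance was tested again only with no filter, the 36 hpf libraries alone, a replicate block and limma on arm ratios. Each of these called 0 hairpins. The arm balance test called 0 to 1 hairpins with 1 library left out, the 1 being miR-193b without 36hpf-TCDD replicate 3 (adjusted p = 0.0425). The star arm of miR-193b had 5 and 2 counts in the TCDD libraries kept. miRNAs of unadjusted p under 0.05 numbered 5 of 353 tested when 36 hpf libraries were fitted alone and 23 of 423 without 36hpf-TCDD replicate 1. Of 81 named results 51 kept their sign under every alternative run and 30 did not. Among the 51 were miR-27e* (1.77 to 2.21), miR-26b*, miR-15c and the miR-455 family. These were named for small p and had groups that do not overlap, so their sign could hardly turn. Of the 51, 38 moved by over 1.5 times when 1 library was left out and 13 did not; miR-223 was 0.12 without 36hpf-TCDD replicate 3, the miR-7 family 0.20 without 36hpf-TCDD replicate 2 and miR-210 -4.09 without 36hpf-TCDD replicate 1. The cause was not tested.

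Over leaving out each of the 6 libraries at 36 hpf, the log2 fold change crossed 0 for miR-10a (-0.15 to 0.13), miR-140* (-0.29 to 0.32), miR-199 (-0.43 to 0.00114), miR-23a (-0.0117 to 0.25), miR-24 (-0.11 to 0.20), miR-221 (-0.31 to 0.96), miR-222 (-0.33 to 0.47), miR-205 (-0.39 to 0.81), miR-451 (-0.50 to 0.56) and miR-451* (-0.40 to 0.83). It also did so for miR-150 (-0.13 to 0.62), miR-192 (-0.13 to 0.52), miR-122 (-1.66 to 0.050), miR-430b (-0.70 to 0.0896), miR-430b* (-0.22 to 0.0752), miR-130b (-0.0457 to 0.72), miR-301c (-0.21 to 0.14), miR-130c (-0.57 to 0.35), miR-16c (-0.19 to 0.70) and miR-457a (-0.25 to 0.0817). The same held for miR-18c* (-0.25 to 0.00626), miR-19a (-0.0808 to 0.29), miR-26a (-0.0583 to 0.53), miR-26b (-0.0823 to 0.81), miR-30c (-0.52 to 0.0875), miR-206 (-0.58 to 0.56), miR-133a-1* (-0.21 to 0.0335), miR-218a (-0.21 to 0.0929), miR-181a (-0.56 to 0.27) and miR-145 (-0.16 to 0.21).

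With total count scaling the sign also turned for miR-10a (-0.00610), miR-222 (-0.0151) and miR-145 (-0.0124), with the 36 hpf libraries alone for miR-10a (-0.00827) and miR-145 (-0.0159), and with copies summed for miR-23a (-0.0383). limma-voom gave -0.20 for miR-222, -0.23 for miR-451, 0.30 for miR-451* and -0.00152 for miR-130c. miR-451* was 0.00728 with RLE scaling, 0.0154 with no filter and 0.00761 with DESeq2. With libraries of 1 number as a replicate block, 0 miRNAs, 0 families and 0 hairpins passed, and 7 of 410 miRNAs had an unadjusted p under 0.05. Under that block the value was -0.16 for miR-222, -0.24 for miR-451, 0.35 for miR-451*, -0.0309 for miR-130c and 0.00437 for miR-218a. The numbers are not shown to pair the libraries, and the block changed no call. Grouping by seed was not run, as no table of miRNA sequences was used here. The median SE was 0.79 for arms under 10 CPM and 0.42 for those of 1000 CPM or more, and the part of depth in this was not tested.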
